A study of Mus musculus with 12 samples.

Results

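Regulators of the step from rest to DNA synthesis were followed in mouse liver remnants: the D-type cyclins Ccnd1, Ccnd2 and Ccnd3, the E-type cyclins Ccne1 and Ccne2, the transcription factors E2f1, E2f8 and Myc, and the CDK inhibitor Cdkn1b. They were picked by gene symbol, with earlier results of these data known. Shares of members called are therefore set beside those of all genes as a description only. All 9 were found among the 13554 genes of the deposited table of normalised reads. All 9 also passed the filter on low values, 10 or more normalised reads in 3 or more libraries, which 12570 genes passed. The table holds 12 mRNA-seq libraries of liver from male wild-type C57Bl/6J mice, taken on postoperative day 3 (partial hepatectomy is the surgical removal of most of the liver). In the PH80_G+H group, 80% of the liver was resected and G-CSF (a cytokine that mobilises myeloid cells) and HNF4a (a hepatocyte transcription factor) were given. In the PH80_HC group, 80% was resected with an added condition that the labels abbreviate as HC and do not spell out. The PH80 group had the 80% resection alone, and the PH70 group a 70% resection alone. Each group had 3 libraries. The sources used here give no form, dose, route or timing for the G-CSF and HNF4a treatment, and no age for the mice. Whether the 3 libraries of a group are from different mice is not in the labels, so the p-values reflect only how far these libraries differ from each other, which may be technical. No library of unoperated liver was analysed here, so no value shows a change relative to resting liver.

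Hepatocytes of an adult liver rest outside the cell cycle and re-enter it after resection. D-type cyclins bind CDK4 and CDK6 in response to growth signals and start the phosphorylation of the retinoblastoma family of pocket proteins. This releases E2F transcription factors, which switch on cyclin E and the genes of DNA synthesis, and cyclin E with CDK2 completes the step. In regenerating liver, cyclin D1 is the D-type cyclin known to be induced in hepatocytes.

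Promoter sequence is shown for the cyclin whose level differed most clearly between the resections, for the E2F family member E2f8, itself a known E2F target and a repressor of E2F genes, and for Cdkn1b, the member with the narrowest spread. Windows of 250 bases before the RefSeq start (GRCm38.p6) were found for 5 of the 9 members. They are printed 5′ to 3′ on the gene's strand, and capitals mark the E2F core hexamer TCCCGC, or GCGGGA where it lies on the other strand.
Ccne1 (chr7:38107491-38107740, minus strand): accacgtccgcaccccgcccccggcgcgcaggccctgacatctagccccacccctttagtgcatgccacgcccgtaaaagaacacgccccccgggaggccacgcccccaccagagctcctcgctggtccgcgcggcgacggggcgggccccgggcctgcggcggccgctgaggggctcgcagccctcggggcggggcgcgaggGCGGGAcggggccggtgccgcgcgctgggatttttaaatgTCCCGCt
E2f8 (chr7:48881597-48881846, minus strand): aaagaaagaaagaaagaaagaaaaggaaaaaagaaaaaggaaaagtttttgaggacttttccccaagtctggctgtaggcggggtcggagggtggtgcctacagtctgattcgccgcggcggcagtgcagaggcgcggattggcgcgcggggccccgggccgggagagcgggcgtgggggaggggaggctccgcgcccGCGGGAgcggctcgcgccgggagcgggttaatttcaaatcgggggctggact
Cdkn1b (chr6:134920151-134920400, plus strand): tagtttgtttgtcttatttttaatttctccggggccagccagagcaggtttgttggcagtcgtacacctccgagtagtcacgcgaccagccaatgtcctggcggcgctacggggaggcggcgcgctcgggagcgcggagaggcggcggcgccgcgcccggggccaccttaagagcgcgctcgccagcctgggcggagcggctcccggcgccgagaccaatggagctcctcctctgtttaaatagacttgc
Counting back from the start, the Ccne1 window holds the core at positions -47 to -42 and -7 to -2. The match at -47 to -42 overlaps a GC box, GGGCGG, at -49 to -44, one of 4 GC boxes in the window when both strands are read. The RefSeq start of Ccne1 lies 44 bases inside the furthest start in GENCODE M21. The E2f8 window holds the core once, at -52 to -47, and 1 CCAAT box. The Cdkn1b window holds no core, 1 GC box and CCAAT boxes at -161 to -157 and -35 to -31. The windows of E2f1 and Ccnd3, which are not printed, hold no core either. The RefSeq start of E2f1 lies 466 bases inside the furthest GENCODE M21 start, so its window lies within the annotated gene. Sequence before that furthest E2f1 start was not read. Ccnd3 has a window at its furthest start and another at a start 88416 bases inside it. Of 32851 mouse windows of the same length, 16.9% hold the E2F core on either strand, 32.7% a GC box, 33.9% a CCAAT box and 6.02% the E-box CACGTG that MYC can bind. The longer E2F sites TTTCCCGC, TTTCGCGC, TTTGCCGC and TTTGGCGC are in 1.86% of windows and in no window of a member. These matches describe letters in a window and no binding was measured.

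The libraries held between 9720887 and 44526542 recovered reads. Hepatocyte markers were high in every library: 7 of 7 (Alb, Apoa1, Ttr, Serpina1a, Hnf4a, Cps1 and Tat) were present, and Alb took 6.74 to 11.7% of the reads. The summed hepatocyte markers were 2513488 to 3118334 normalised reads in PH80_G+H, 2712769 to 3985710 in PH80_HC, 1951370 to 2385644 in PH80 and 2946283 to 3182955 in PH70. The 6 neutrophil markers summed to 349 to 2340 in PH80_G+H, 584 to 2140 in PH80_HC, 299 to 5876 in PH80 and 140 to 486 normalised reads in PH70. The 6 macrophage markers summed to 10196 to 14943 in PH80_G+H, 17460 to 26471 in PH80_HC, 10351 to 25400 in PH80 and 8535 to 11328 in PH70. In each group 1 library had the steepest trend of its reads with transcript length. These were PH80_G+H replicate 2, PH80_HC replicate 3, PH80 replicate 1 and PH70 replicate 3. Their log2 slopes per doubling of length were 0.228, -0.277, -0.187 and 0.222, in that order, so PH80 and PH70 had opposite signs. PH70 replicate 2 had a slope of 0.107. The differences of Ccnd1, Ccne1 and Myc described here, and the calls of list genes, are also given without the 4 steepest libraries.

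Per kilobase of the longest annotated transcript, cyclin D1 was by far the most abundant of the 9 transcripts. Ccnd1 averaged 1320 normalised reads per kilobase over the 12 libraries, Ccnd3 257, E2f1 121, Ccne1 113, Cdkn1b 109, Myc 92.4, E2f8 44.5, Ccne2 34.2 and Ccnd2 26.5. Ccnd1 also varied most, with 3.90 times more normalised reads in its highest library than in its lowest, and Cdkn1b varied least, at 1.499 times. The fewest reads behind a value were 28, for Ccne2, and the most were 21151, for Ccnd1, so the low values of Ccne2 carry more counting error. Between the 4 groups, the limma F test with Benjamini-Hochberg adjustment called 2 of the 9, Ccne1 (adjusted p = 0.0265) and Ccnd1 (adjusted p = 0.0494), beside 1.85% of all genes tested. The call for Ccne1 held in 18 of 24 alternative analyses and that for Ccnd1 in 9 of 24. The 7 others had adjusted p between 0.213 and 0.962 in the same limma F test.

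**Figure D1:**
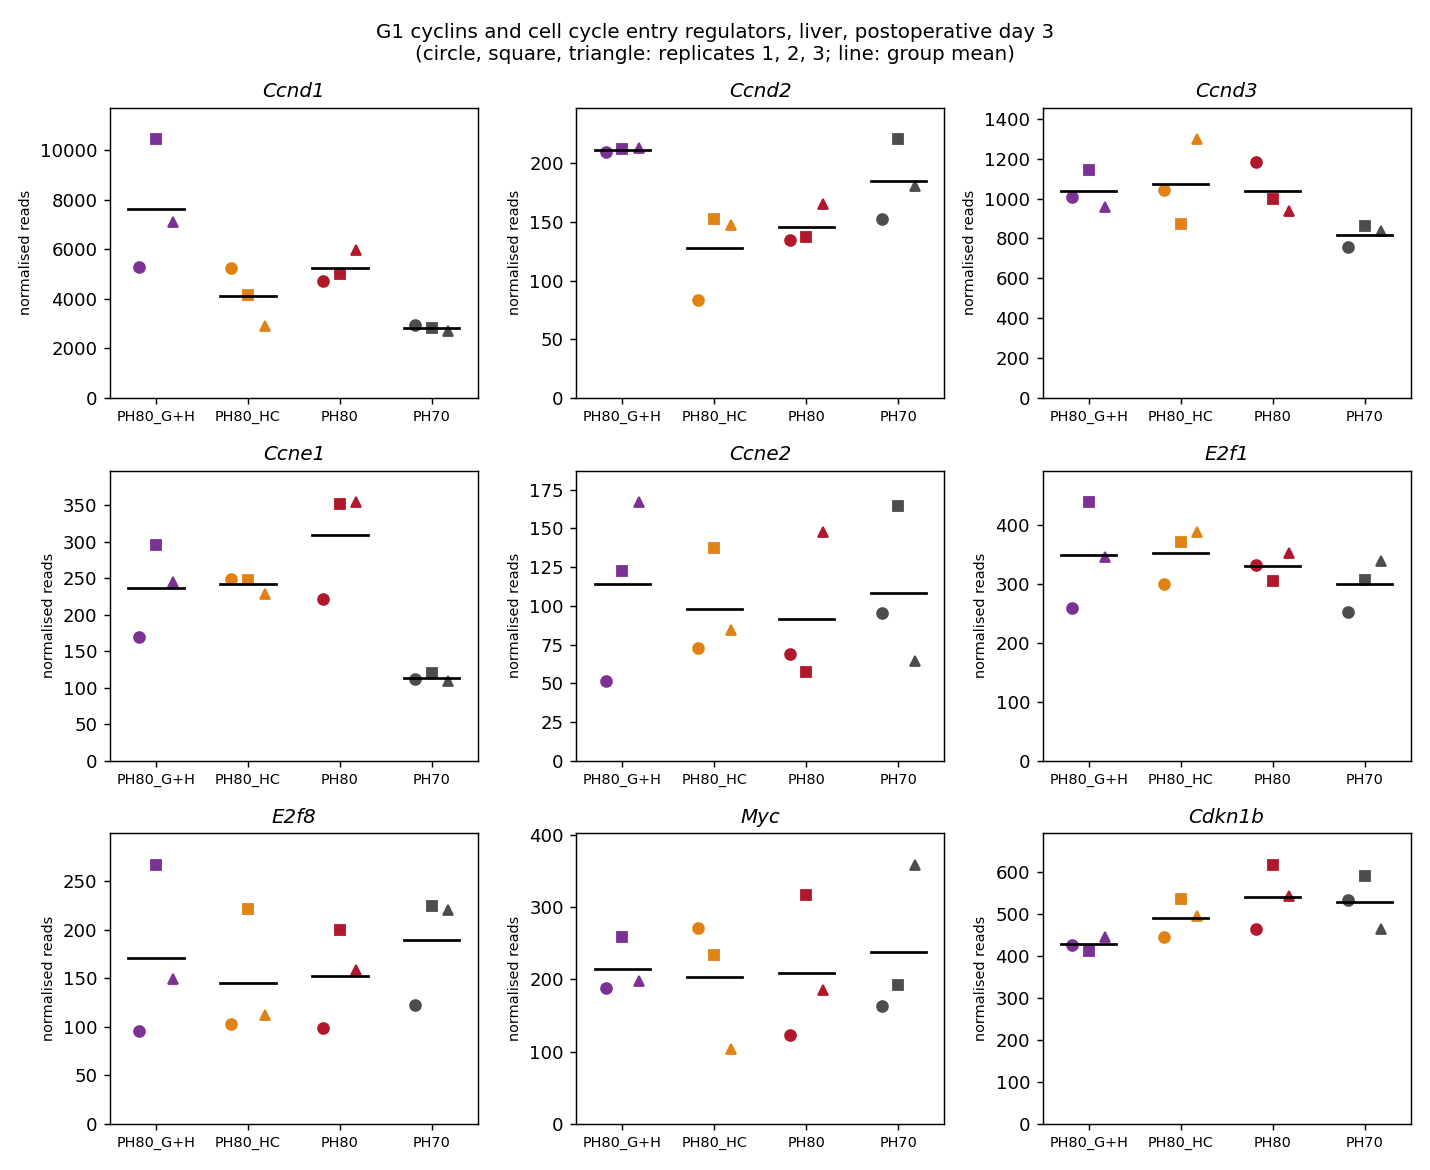
Normalised reads (vertical axis) of the 9 genes in PH80_G+H, PH80_HC, PH80 and PH70; each marker is 1 library, with circles, squares and triangles for replicates 1, 2 and 3, and the line is the group mean. The 3 PH70 libraries of Ccne1, at 109 to 121, lie below all 9 others, and Ccnd1 is highest in PH80_G+H replicate 2, at 10463.

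Cyclin D1, encoded at chr7:144929931-144939925 on the minus strand (GRCm38, GENCODE M21), is the D cyclin that pairs with CDK4 and CDK6 in hepatocytes entering the cycle. Ccnd1 had 5269, 10463 and 7114 normalised reads in PH80_G+H, 5257, 4139 and 2885 in PH80_HC, 4706, 5003 and 5954 in PH80, and 2954, 2802 and 2685 in PH70. The 3 PH80_G+H and the 3 PH80 libraries each lay above all PH70 libraries, whereas PH80_HC replicate 3 lay inside the PH70 range. The group means were 7615 ± 2633 in PH80_G+H, 4094 ± 1186 in PH80_HC, 5221 ± 652 in PH80 and 2814 ± 135 in PH70 (SD, n = 3 each). In PH80 the level was 1.85 times that in PH70, a log2 difference of 0.89 (SE 0.26, 95% interval 0.33 to 1.44) that missed the threshold in limma (Benjamini-Hochberg adjusted p = 0.0781). It passed in 4 of 25 alternatives. DESeq2 (adjusted p = 0.0194) was 1, and limma with each library's dependence on transcript length and GC taken out (adjusted p = 0.0285) another. The others were limma on the 2 groups alone (adjusted p = 0.0331) and limma without PH80_HC replicate 3 (adjusted p = 0.0418). In the rest it missed, with an adjusted p of 0.0838 in edgeR and of 0.223 in limma without PH70 replicate 2. Without the 4 libraries with the steepest length trend it missed, at an adjusted p of 0.0665 in limma. The spread within PH80_G+H was wide, and the difference between PH80_G+H and PH80 was 0.49 on the log2 scale with an interval of -0.06 to 1.05 (limma adjusted p = 0.533), and 0.17 without the 4 libraries with the steepest length trend, of which PH80_G+H replicate 2 holds the highest Ccnd1 value. These are bulk tissue libraries, in which fewer cells of a type and less RNA per cell cannot be told apart.

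Cyclin D2 (Ccnd2, chr6:127125162-127152193, minus strand), a D cyclin best known from ovary, brain and blood cells, was scarce in these livers. Ccnd2 had 210, 213 and 213 normalised reads in PH80_G+H, 83.4, 153 and 148 in PH80_HC, 135, 137 and 166 in PH80, and 153, 221 and 181 in PH70. All PH80_G+H libraries lay above all PH80 and all PH80_HC libraries and inside the PH70 range. The log2 difference between PH80_G+H and PH80 was 0.54 (interval 0.02 to 1.06), with an unadjusted limma p of 0.0417 and an adjusted p of 0.457. Between PH80_HC and PH80_G+H it was -0.77 (limma adjusted p = 0.206). Neither difference passed the test over all genes.

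Cyclin D3 (Ccnd3, chr17:47505051-47599691, plus strand) is the D cyclin that many resting and differentiated tissues keep expressing. Ccnd3 averaged 1037 ± 96.1 normalised reads in PH80_G+H, 1073 ± 215 in PH80_HC, 1039 ± 127 in PH80 and 819 ± 53.2 in PH70 (SD, n = 3 each). Its lowest values were 958 in PH80_G+H, 874 in PH80_HC and 935 in PH80, each above the highest PH70 value of 861. All 9 libraries after 80% resection thus lay above the 3 after 70%, by log2 differences of 0.34 (PH80_G+H), 0.37 (PH80_HC) and 0.34 (PH80), none of which passed limma with Benjamini-Hochberg adjustment (adjusted p = 0.879, 0.324 and 0.288). The 3 comparisons share the PH70 libraries.

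The makeup of the D cyclins followed from these levels. Ccnd1 made up 86.4 ± 3.42% of the D-cyclin transcripts per kilobase in PH80_G+H, 77.6 ± 8.25% in PH80_HC, 82.5 ± 3.11% in PH80 and 75.7 ± 2.14% in PH70 (SD, n = 3 each). The libraries of PH80_G+H and of PH80 did not overlap with those of PH70, and the exact two-sided permutation test gave p = 0.1 for both, the smallest value that 3 against 3 libraries allow. Ccnd2 made up 2.38 to 3.47% in PH70 and at most 2.06% in any of the 9 libraries after 80% resection. The share of Ccnd1 depends on the transcript length used: with the union of exons it averaged 91.5% in PH80_G+H, 85.7% in PH80_HC, 89.1% in PH80 and 84.1% in PH70, in the same order of groups.

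**Figure D2:**
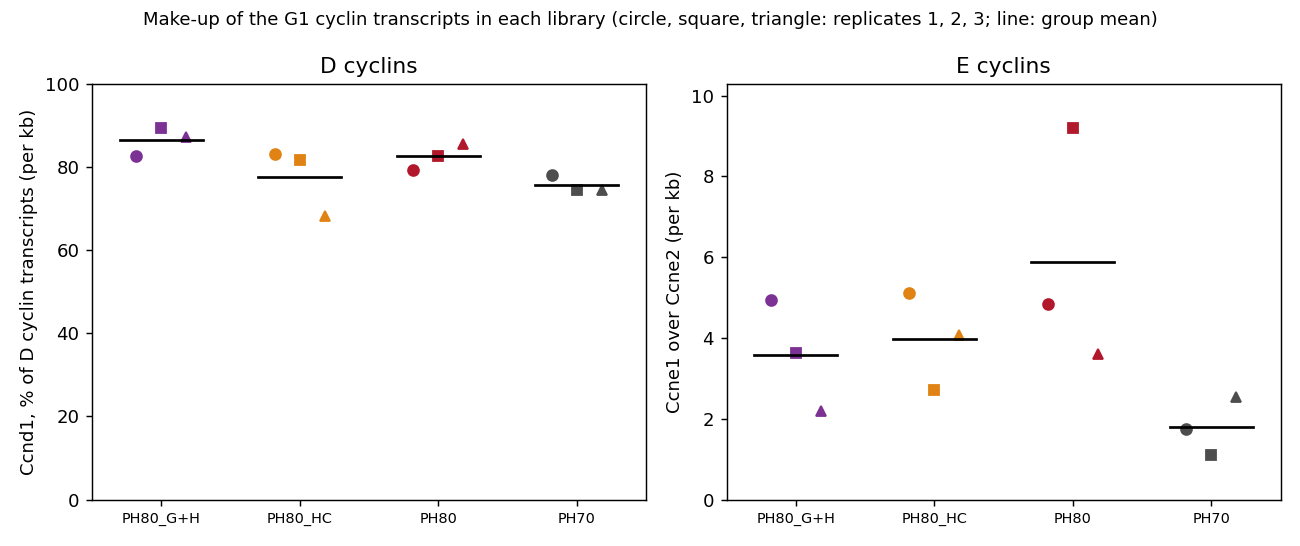
Left, share of Ccnd1 among the D cyclins (percent of normalised reads per kilobase), and right, the ratio of Ccne1 to Ccne2 per kilobase, in PH80_G+H, PH80_HC, PH80 and PH70; circles, squares and triangles are replicates 1, 2 and 3, and lines are group means. Mean Ccnd1 shares lie between 86.4% in PH80_G+H and 75.7% in PH70, and the mean ratio is lowest in PH70, at 1.80.

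Cyclin E1, which with CDK2 drives cells into DNA synthesis, was the member called between the 2 resections. Ccne1 (chr7:38097984-38107534, minus strand) had 169, 296 and 245 normalised reads in PH80_G+H, 248.6, 248 and 228 in PH80_HC, 222, 352 and 355 in PH80, and 111, 121 and 109 in PH70. Every library after 80% resection lay above every PH70 library. Ccne1 rose in PH80 to 2.65 times the PH70 level, with means of 309.8 ± 75.9 in PH80 and 114 ± 6.06 in PH70 (SD, n = 3 each), a log2 change of 1.41 (SE 0.23, interval 0.90 to 1.91, limma adjusted p = 0.00762). It was the 1 of 9 members that limma called in this comparison, beside 3.82% of all genes tested (1.09% higher and 2.73% lower in PH80). The call held in 25 of 25 alternatives, with adjusted p between 7.1e-06 and 0.0448, and the log2 change was 1.601 without the 4 libraries with the steepest length trend. Summed hepatocyte markers were lower in PH80 than in PH70, as given above. By gene, 7 of 7 hepatocyte markers had the lower mean in PH80, with a median log2 difference of -0.18. Limma and edgeR called 0 of them, 0 had an unadjusted p under 0.05 and DESeq2 called 1. Of the 6 neutrophil markers 5 were tested, and 5 of 5 had the higher mean in PH80, with a median log2 difference of 2.24. Limma and edgeR called 0 of these, 3 had an unadjusted p under 0.05 and DESeq2 called 3. The part of either in the change of Ccne1 was not tested.

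In PH80_HC, Ccne1 averaged 242 ± 11.5 normalised reads, 2.11 times PH70 (log2 difference 1.08, SE 0.23, interval 0.58 to 1.58). In PH80_G+H it averaged 237 ± 64.0, 2.02 times PH70 (log2 difference 1.02). Neither passed limma with Benjamini-Hochberg adjustment (adjusted p = 0.0908 for PH80_HC and 0.218 for PH80_G+H), and both passed DESeq2 (adjusted p = 0.00643 and 0.0158). Without the 4 libraries with the steepest length trend, the log2 differences from PH70 were 1.09 in PH80_HC and 0.81 in PH80_G+H (limma adjusted p = 0.174 and 0.462). Neutrophil markers had a median log2 difference from PH70 of 2.27 in PH80_HC, with 4 of 5 higher, and of 2.31 in PH80_G+H, with 5 of 5 higher. None of them passed limma, edgeR or DESeq2, 2 in PH80_HC and 3 in PH80_G+H had an unadjusted p under 0.05, and their part in the Ccne1 values was not tested. In PH80_HC, 6 of 6 macrophage markers (median log2 difference 0.78) and 5 of 6 lymphocyte markers (1.28) had a higher mean than in PH70. Limma and edgeR called 0 of these. DESeq2 called 2 in each list, and 4 macrophage and 3 lymphocyte markers had an unadjusted limma p under 0.05. In PH80_G+H, 3 of 6 were higher in each list (medians -0.03 and 0.06). The part of these markers was not tested either. Relative to PH80, the log2 difference of Ccne1 was -0.33 in PH80_HC and -0.39 in PH80_G+H, and neither passed limma (adjusted p = 0.584 and 0.595). Without the same 4 libraries these were -0.51 in PH80_HC and -0.79 in PH80_G+H (adjusted p = 0.419 and 0.266).

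Cyclin E2 (Ccne2, chr4:11191351-11204779, plus strand), the other E cyclin, spread widely within groups. Ccne2 had 51.5, 123 and 167 normalised reads in PH80_G+H, 72.9, 137 and 84.3 in PH80_HC, 68.9, 57.6 and 148 in PH80, and 95.6, 165 and 64.7 in PH70. The 4 groups overlapped, and the spread within a group reached 3.25 times, in PH80_G+H. The ratio of Ccne1 to Ccne2 per kilobase was 4.94, 3.63 and 2.21 in PH80_G+H, 5.13, 2.71 and 4.07 in PH80_HC, 4.85, 9.19 and 3.61 in PH80, and 1.75, 1.10 and 2.54 in PH70. All PH80 and all PH80_HC libraries lay above the PH70 libraries, each with p = 0.1 in the exact two-sided permutation test, the smallest possible, and PH80_G+H overlapped with PH70 (p = 0.2).

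E2F1 is an activator released by pocket proteins, and E2F8 is an atypical family member that represses E2F targets late in the cycle. E2f1 (chr2:154559407-154569892, minus strand) had 259, 440 and 346 normalised reads in PH80_G+H, 299.6, 371 and 388 in PH80_HC, 332, 306 and 352 in PH80, and 253, 307 and 339 in PH70. Its groups overlapped in all comparisons. E2f8 (chr7:48866429-48881596, minus strand) had 95.7, 267 and 149 in PH80_G+H, 103, 222 and 112 in PH80_HC, 98.4, 199.6 and 158 in PH80, and 122, 225 and 221 in PH70. Its highest value, 267, was in PH80_G+H replicate 2, the library of that group with the steepest length trend, and its groups overlapped as well. The PH80 minus PH70 log2 difference was 0.15 for E2f1 and -0.32 for E2f8 (limma adjusted p = 0.720 and 0.683).

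MYC is a transcription factor of growth and early regeneration, and its gene passed the threshold in no comparison. Myc (chr15:61985391-61990374, plus strand) had 188, 259 and 198 normalised reads in PH80_G+H, 271, 234 and 104 in PH80_HC, 122, 317 and 185 in PH80, and 163, 192 and 359 in PH70. The lowest library was PH80_HC replicate 3 and the highest PH70 replicate 3, both among the 4 with the steepest length trend. The PH80 minus PH70 log2 difference was -0.21 (limma adjusted p = 0.793) and was 0.45, the other sign, without those 4 libraries.

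p27, the product of Cdkn1b (chr6:134920401-134925513, plus strand), binds and inhibits cyclin E with CDK2 and also helps D cyclins assemble with CDK4. Cdkn1b had 425, 412 and 443 normalised reads in PH80_G+H, 444, 534 and 494 in PH80_HC, 463, 617 and 542 in PH80, and 531, 589 and 464 in PH70. The PH80_G+H libraries lay below all libraries of the 3 other groups, though PH80_HC replicate 1 was within 1 read of the highest of them, and their log2 differences were -0.33 from PH80 and -0.30 from PH70. No Cdkn1b difference passed limma (adjusted p = 0.517 and 0.915 for these). PH80 and PH70 differed by 0.03 (adjusted p = 0.936).

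Across the 6 comparisons, differences that passed a test were those of Ccne1 and Ccnd1. In PH80 against PH70, limma and edgeR each called 1 of 9 (Ccne1; edgeR called 2.93% of all genes), DESeq2 called 2 (Ccne1 and Ccnd1; 7.56% of all genes), and the same 2 had an unadjusted limma p under 0.05 (21.4% of all genes). In the same comparison, the groups did not overlap for Ccnd1, Ccnd3 and Ccne1, 3 of 9, beside 27% of all genes. In PH80_HC against PH80, limma called 0 of 9, with 0 at an unadjusted p under 0.05 and 0 by edgeR or DESeq2, and the groups overlapped for all 9. Over all genes in that comparison, limma called 0.891%, edgeR 0.923% and DESeq2 4%, 14.3% had an unadjusted p under 0.05 and 15.6% did not overlap.

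In PH80_G+H against PH80, limma called 0 of 9, 1 had an unadjusted p under 0.05 (Ccnd2), and neither edgeR nor DESeq2 called any, while Ccnd2 and Cdkn1b did not overlap. Over all genes, limma called 0.119%, edgeR 0.0875% and DESeq2 1.61%, 10.5% had an unadjusted p under 0.05 and 16.9% did not overlap. In PH80_HC against PH70, limma and edgeR called 0, DESeq2 1 (Ccne1), and 2 had an unadjusted p under 0.05 (Ccne1 and Ccnd2), while Ccnd3 and Ccne1 did not overlap. The shares of all genes were 0.231% by limma, 0.119% by edgeR, 2.01% by DESeq2, 15.8% at an unadjusted p under 0.05 and 17% without overlap. Ccnd1 and Ccne1 were again the members called by DESeq2 in PH80_G+H against PH70, where limma and edgeR called 0, the same 2 had an unadjusted p under 0.05, and Ccnd1, Ccnd3, Ccne1 and Cdkn1b did not overlap. All-gene shares there were 0.00796% by limma, 0.00796% by edgeR, 0.525% by DESeq2, 5.97% at an unadjusted p under 0.05 and 13.5% without overlap. Ccnd1 was 2.60 times as high in PH80_G+H as in PH70 (log2 difference 1.38, interval 0.82 to 1.94, limma adjusted p = 0.120, DESeq2 adjusted p = 0.000174), and the log2 difference was 1.09 without the 4 libraries with the steepest length trend (limma adjusted p = 0.199).

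Between PH80_HC and PH80_G+H, limma and edgeR called 0, DESeq2 called 1 (Ccnd1, limma log2 difference -0.88, limma adjusted p = 0.191, DESeq2 adjusted p = 0.0446), and Ccnd1 and Ccnd2 had an unadjusted p under 0.05. Without the 4 libraries with the steepest length trend, which include the lowest PH80_HC and the highest PH80_G+H value of Ccnd1, its log2 difference was -0.39 (limma adjusted p = 0.824). Ccnd1, Ccnd2 and Cdkn1b did not overlap there. Of all genes, limma called 0.255%, edgeR 0.374% and DESeq2 2.43%, 13.6% had an unadjusted p under 0.05 and 17.1% did not overlap. The members' median log2 difference was 0.03 in PH80 against PH70, -0.10 in PH80_HC against PH80, 0.10 in PH80_G+H against PH80, -0.09 in PH80_HC against PH70, 0.19 in PH80_G+H against PH70 and -0.11 in PH80_HC against PH80_G+H, and that of all genes lay between -0.01 and 0.02. Comparisons that have a group in common use the same libraries of it.

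**Figure D3:**
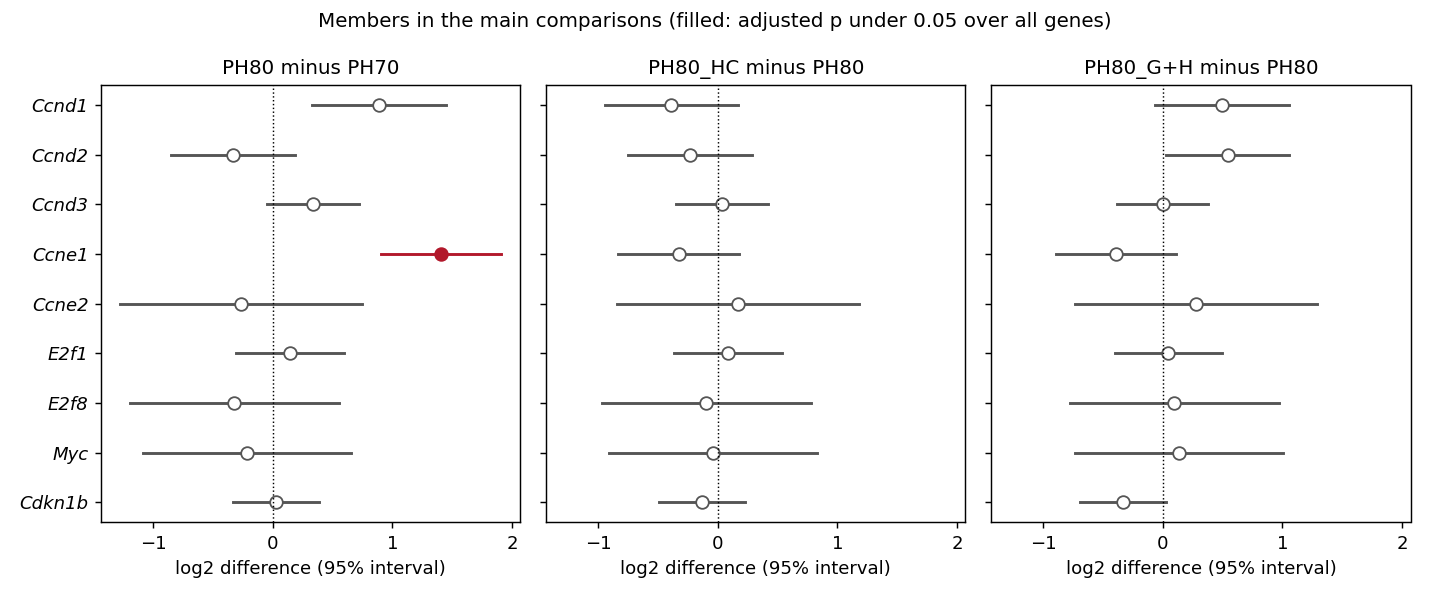
Log2 differences of the 9 genes with 95% intervals from limma in PH80 minus PH70, PH80_HC minus PH80 and PH80_G+H minus PH80; a positive value means higher in the group named first in the panel, and a filled marker an adjusted p under 0.05. Ccne1 in PH80 against PH70, at 1.41, is the difference that passed the adjusted threshold of 0.05, and Ccnd1 in the same comparison, at 0.89, did not.

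Around the members, 152 genes in 9 lists of the same pathway were read, of which 148 were tested. These lists were also chosen with earlier results of these data known, so their shares are a description only. In PH80 against PH70, 5 rose and 4 fell by limma, 6.08% beside the 3.82% of all genes. EdgeR called 7, beside 2.93% of all genes, and DESeq2 19, beside 7.56%. The number of calls depended on single libraries. Limma called 1 of these genes without PH70 replicate 2, 2 without PH80 replicate 1 and 3 without PH70 replicate 3. It called 4 without PH70 replicate 1, 4 without PH80 replicate 2 and 14 without PH80_HC replicate 3. The count over all genes moved as well, between 61 without PH70 replicate 2 and 725 without PH80_HC replicate 3, against 480 as reported. Cks1b, the cofactor through which the SKP2 ligase recognises p27, rose 2.43-fold (821 ± 129 in PH80 and 338 ± 64.1 in PH70, limma adjusted p = 0.00762). E2f2, an activator E2F, rose 2.06-fold (278 ± 69.5 in PH80 and 133 ± 21.3 in PH70, adjusted p = 0.0265). The MYC targets Odc1, the first enzyme of polyamine synthesis, and Srm, spermidine synthase, rose 1.97-fold and 2.06-fold (adjusted p = 0.0229 and 0.0204), while 18 of the 20 MYC targets did not pass. Cdk1, the kinase of mitotic entry, rose 2.28-fold (adjusted p = 0.0305).

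The 4 that fell were Dusp1, a MAP kinase phosphatase induced early by growth signals, 4.07-fold (438 ± 183 in PH80 and 1737 ± 523 in PH70, limma adjusted p = 0.00447), Mcm10, a replication initiation factor, 3.39-fold (397 ± 70.1 in PH80 and 1444 ± 639 in PH70, adjusted p = 0.0139), Junb 2.30-fold (adjusted p = 0.0395) and the pocket protein gene Rbl2 2.27-fold (adjusted p = 0.0478). Mcm10 was the 1 of 30 E2F targets of S phase that passed. Without the 4 libraries with the steepest length trend, Cks1b, Odc1, Mcm10 and Dusp1 kept their calls, and E2f2, Srm, Cdk1, Junb and Rbl2 did not. Over the 25 alternatives, Dusp1 kept its call in 25 and Cks1b in 24, while Junb lost it in 13 and Rbl2 in 15.

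None of the 7 listed CDK inhibitor genes passed limma in PH80 against PH70. Of these, 3 had an unadjusted p under 0.05, beside 21.4% of all genes, and edgeR and DESeq2 called 0. The list leaves out the member Cdkn1b, which differed by 0.03 on the log2 scale. All 7 listed genes had the higher mean in PH80, with a median log2 difference of 0.78 beside 0.01 for all genes. Some had low values: in PH80 and PH70, Cdkn2b averaged 23.6 and 8.77 normalised reads, Cdkn2a 26.1 and 14.4, and Cdkn1c 39.4 and 28. Cdkn1a, which encodes the inhibitor p21, averaged 2243 ± 558 in PH80 and 1174 ± 337 in PH70, a log2 difference of 0.94 (limma adjusted p = 0.124). Among the kinases and pocket proteins, Cdk4 averaged 1681 ± 180.3 in PH80 and 1287 ± 149 in PH70 (log2 difference 0.39, adjusted p = 0.201), and Rb1 95.2 ± 18.3 in PH80 and 162 ± 25.7 in PH70 (log2 difference -0.76, adjusted p = 0.0946). Cdk2 and Cdk6 differed by -0.06 and -0.05 on the log2 scale.

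In PH80_HC against PH80, Odc1 fell 2.20-fold (1021 ± 255 in PH80_HC and 2201 ± 84.5 in PH80, limma adjusted p = 0.0257), 1 of 148 or 0.676%, beside 0.891% of all genes, and it lost the call without the 4 libraries with the steepest length trend. In PH80_HC against PH70, Dusp1 fell 3.88-fold (437 ± 57.6 in PH80_HC and 1737 ± 523 in PH70, limma adjusted p = 0.0260), and kept the call without those 4 libraries. It was 1 of 148 or 0.676%, beside 0.231% of all genes. In PH80_G+H against PH80, limma and edgeR called 0 of 148. DESeq2 called 24, beside 1.61% of all genes, and 45 had an unadjusted limma p under 0.05, beside 10.5%. Limma called 2 without the 4 libraries with the steepest length trend. The 25 mitosis genes, a list whose pattern was known beforehand, had the lower mean in PH80_G+H than in PH80 in 25 of 25 (median log2 difference -1.22) and in PH80_HC than in PH80 in 25 of 25 (median -0.72), and none passed limma or edgeR. In PH80_G+H against PH80, 25 of 25 had an unadjusted p under 0.05, beside 10.5% of all genes, DESeq2 called 17, beside 1.61%, and limma called 1 without the 4 libraries with the steepest length trend. In PH80_HC against PH80, 13 of 25 had an unadjusted p under 0.05, beside 14.3% of all genes, DESeq2 called 1, beside 4%, and limma called 0 without those libraries. Both comparisons use the same PH80 libraries, in which 25 of 25 had a higher mean than in PH70 (median 0.64). There, 7 had an unadjusted p under 0.05, beside 21.4% of all genes, and DESeq2 called 6, beside 7.56%. Against PH70, 12 were higher and 13 lower in PH80_HC (median -0.002). In PH80_G+H 25 of 25 were lower than in PH70 (median -0.49), 2 of them at an unadjusted p under 0.05. Cdk1 averaged 903 ± 218 in PH80_G+H, 1391 ± 459 in PH80_HC and 2486 ± 699 in PH80 (SD, n = 3 each). Limma and edgeR called 0 of 148 in PH80_G+H against PH70 and 0 in PH80_HC against PH80_G+H. In PH80_G+H against PH70, 18 had an unadjusted limma p under 0.05, beside 5.97% of all genes, and DESeq2 called 1, beside 0.525%. In PH80_HC against PH80_G+H, 27 had an unadjusted limma p under 0.05, beside 13.6%, and DESeq2 called 4, beside 2.43%.

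**Figure D4:**
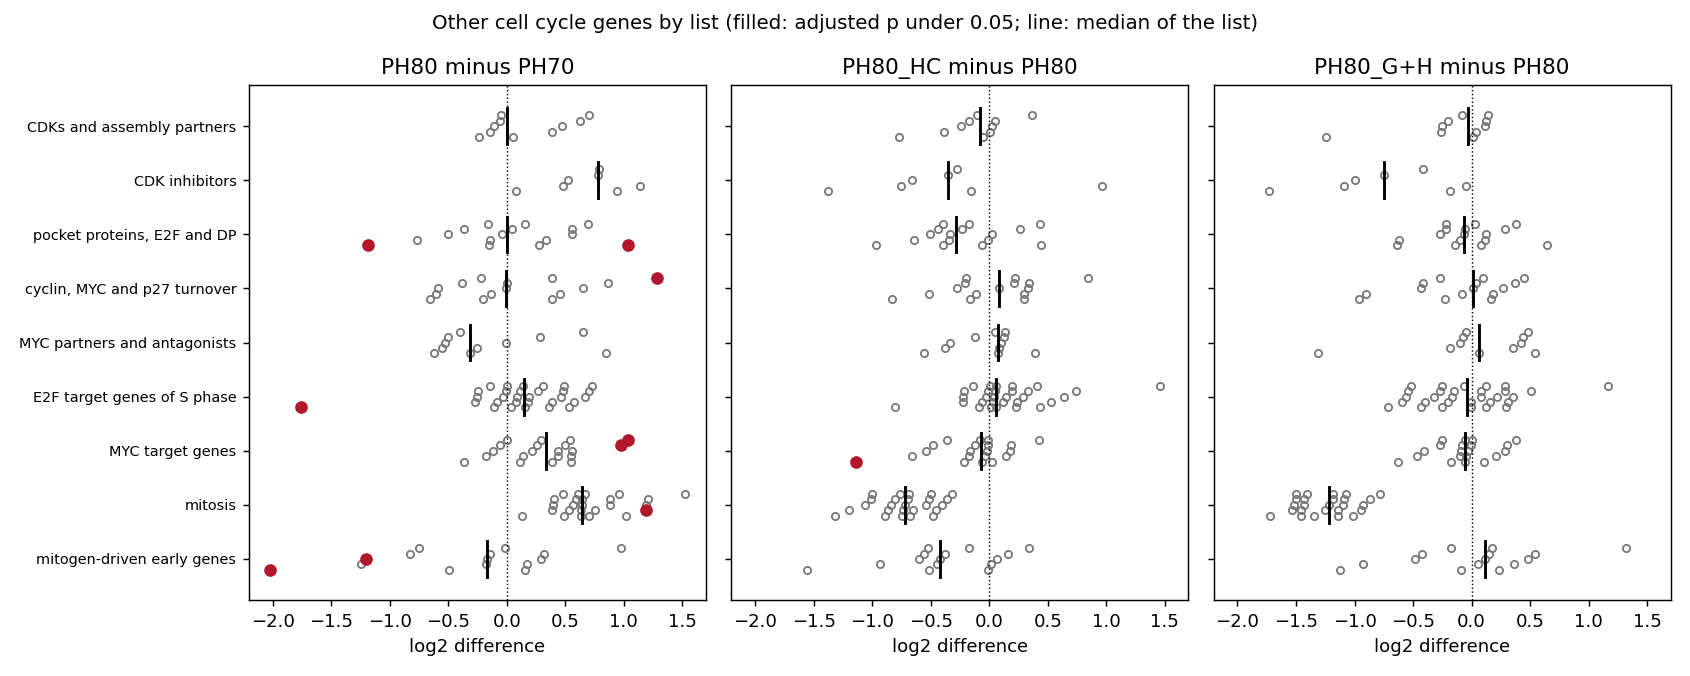
Log2 differences of the genes of the 9 pathway lists in PH80 minus PH70, PH80_HC minus PH80 and PH80_G+H minus PH80; each point is 1 gene, filled where the adjusted p is under 0.05, and the line is the list's median. In PH80 against PH70 the mitosis genes have a median of 0.64 and the CDK inhibitors of 0.78, while in PH80_G+H against PH80 the mitosis median is -1.22.

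The genes whose levels ran most like a member's over the 12 libraries were ranked by Pearson's r among 10654 genes with a mean of at least 50 normalised reads, as a description, since all genes share the libraries and their depth. The nearest to Ccnd1 were Zfp532 (r = 0.941), Atp2b2 (0.925) and Cad (0.912). The nearest to Ccne1 were Raph1 (0.932), Cdc25a (0.886) and Lins1 (0.877). After each group's mean was taken out, r with Ccne1 was 0.661 for Cdc25a and 0.0711 for Lins1. The nearest to E2f8 were Topbp1 (0.938), Mdc1 (0.934) and Pds5b (0.922), to Myc Afdn (0.932), Sufu (0.928) and Med15 (0.926), and to Cdkn1b Nuf2 (0.912), Cenpi (0.900) and Cenpq (0.878). The nearest to Ccnd2 was Arhgef17 (0.912), to Ccnd3 Klhdc4 (0.886), to Ccne2 Ythdf3 (0.910) and to E2f1 Cdca7l (0.835).

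Several members overlap genes on the opposite strand in GENCODE M21: Ccnd3 overlaps Bysl, Ccne2 overlaps Ints8, Ccnd1 overlaps the LTO1 gene, Ccnd2 overlaps 9330179D12Rik and Gm43126, and E2f8 overlaps Gm2788. The library kit keeps strand, but the sources used here do not give the strand setting of the read counting, so reads of such pairs may be shared.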

How the data were processed

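Liver mRNA was sequenced with a stranded mRNA kit starting at 100 ng of total RNA, per the labels' protocols. The authors deposited 1 signal table of normalised reads per gene, and the submitters' processing notes name DESeq2 and the builds mm10 and GRCm38. The sources used here do not give the aligner, the counter or its strand setting. Every deposited value was a whole multiple of 1 read of its library (100% within 0.01 reads), so read counts were recovered, and DESeq2 size factors computed from them matched the divisors of the deposited values. Values were tested on log2(value + 1) with limma 3.58.1 (R 4.3.3) with an intensity trend, over all 12 libraries and the 12570 genes reaching 10 or more in 3 or more libraries. P-values are two-sided, Benjamini-Hochberg adjusted over all genes tested, with a threshold of 0.05. Fold changes lie on the log2(value + 1) scale. edgeR 4.0.16 (quasi-likelihood) and DESeq2 1.42.0 were run on the recovered reads as alternatives, 25 in all per comparison. The limma fit of PH80 against PH70 was tried on simulated data. The simulation used the same dispersion for all genes and no length trend, unlike these libraries. The F test, edgeR and DESeq2 were not checked in this way. Each member was named in each comparison. Of other genes, up to 6 per list and comparison past the threshold were named, with a few set regulators. Members and lists were chosen with earlier results of these data known. Lengths and coordinates come from GENCODE M21 and promoters from RefSeq (GRCm38.p6). Replicate libraries differed by more than sampling noise in all groups.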

Additional observations from a re-analysis of the deposited data

How the results depend on the processing

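Each comparison was recomputed in 25 alternatives. Ccne1 in PH80 against PH70 kept its call in all 25. The number of members called in PH80 against PH70, 1 in the analysis reported, was 2 with DESeq2, 2 with only the 2 groups, 2 with the trend of transcript length and GC removed, and 1 to 2 when each library was left out in turn, with 2 without PH80_HC replicate 3; the added member was Ccnd1 each time. DESeq2 called 1 member in PH80_HC against PH70, 2 in PH80_G+H against PH70 and 1 in PH80_HC against PH80_G+H, where limma called 0. In PH80_HC against PH80 and PH80_G+H against PH80, no alternative called a member. The F test over the 4 groups called 2 members, but 1 with a pseudocount of 0.5, 1 with a value of at least 50 in 3 libraries, 0 in limma without the intensity trend, 0 with the same total in every library, 1 with the replicate block, 1 without the 4 libraries with the steepest length trend, and 0 to 2 with single libraries left out. The cause of these changes was not tested.

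Of 1350 recomputed member differences, 75 had the other sign, none of them called in either analysis, and 26 of 54 differences never changed sign. Without the 4 libraries with the steepest length trend, the log2 difference was 0.45 for Myc in PH80 against PH70, -0.57 for E2f8 in PH80_G+H against PH80 and -0.43 for Ccne2 in PH80_G+H against PH70. Scaling to the same total moved the median of all genes by 0.12 in PH80 against PH70, -0.33 in PH80_HC against PH80, -0.10 in PH80_G+H against PH80, -0.21 in PH80_HC against PH70, 0.02 in PH80_G+H against PH70 and -0.23 in PH80_HC against PH80_G+H. Counts over all genes left a range of 1.5 times the reported count in 89 of 174 recomputations, and counts of list genes in 49 of 174. In PH80 against PH70, DESeq2 called 950 genes, the same-total scaling 237 and the replicate block 293, against 480 as reported. With single libraries left out, that count ranged between 61 (without PH70 replicate 2) and 725 (without PH80_HC replicate 3), and was 125 without PH80 replicate 1, 157 without PH80 replicate 2, 173 without PH70 replicate 1, 275 without PH70 replicate 3 and 306 without PH80_G+H replicate 3. The share of 3.82% of all genes moves with it. The replicate numbers recur in each group, but 6 of 18 same-numbered pairs had a correlation of deviations over 0.1 (range -0.37 to 0.37), so they were not taken as pairs; with the replicate block 1 member was called in PH80 against PH70.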
